A study of Mus musculus with 2 samples.

Results

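Genes of cholesterol synthesis, uptake and efflux were examined in cultured mouse intestinal subepithelial myofibroblasts, the contractile stromal cells beneath the gut epithelium. The members were a list of 30 sterol genes taken by symbol, of which 26 had a probeset paired with them alone, out of 22180 genes so measured. Stimulated cells were kept for 1 day with homogenised intestinal eosinophils (5 mg/ml), and non-stimulated cells were cultured without it. All cells came from the small bowel of wild-type BALB/c animals. RNA from 3 cultures was pooled per condition before labelling, and each pool was read on 1 Mouse Gene 2.0 ST array. No test between the conditions is therefore possible, each value below describes 1 pool without an error, and the number of arrays limits the precision.

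Cells make cholesterol from acetyl-CoA by way of mevalonate, farnesyl diphosphate, squalene and lanosterol. The transcription factor SREBP2 drives most of these enzymes: when membrane sterol is low, its escort SCAP carries it out of the endoplasmic reticulum, and when sterol is high, the INSIG proteins hold it there. The LXR nuclear receptors answer to oxysterols and drive genes that export cholesterol and limit its uptake, so that the SREBP2 and LXR programmes usually oppose each other. In fibroblasts and smooth muscle cells, sterol supply serves growth and the cholesterol-rich membrane pits called caveolae.

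All 26 measured members exceeded the background level on both arrays. That level was 5.57 on the stimulated and 5.58 on the non-stimulated array (log2), the 95th percentile of the 1405 probesets that read olfactory or vomeronasal receptors. Of all genes, 14065 exceeded it on at least 1 array. Acat2, Soat1 and Nr1h2 were not analysed here, and the probeset of Idi1 is shared with Gm13502, so no value is given for these 4. Uptake was represented among the members by Mylip alone. All 12 myofibroblast markers were above background, as were 14065 of the 22180 genes, with Vim (vimentin) at 13.16 on the stimulated and 13.10 on the non-stimulated array. Of 10 enterocyte markers 5 were above it too, the brightest, Krt8, at 6.23 on the stimulated and 6.45 on the non-stimulated array. The 12 myofibroblast markers read at least 7.23 on the stimulated and 7.85 on the non-stimulated array. Of these 12 markers 6 were higher and 6 lower, and some differed by more than any sterol member: the contractile genes Acta2 (smooth muscle actin), Tagln (transgelin) and Des (desmin) by -0.28, -0.41 and -0.62, and the growth factor receptor gene Pdgfra by 0.56 (stimulated minus non-stimulated, log2). One label field names eosinophils as the source of both samples, but 2 of 8 eosinophil markers were above background. Alox15 read 5.87 on the stimulated and 5.68 on the non-stimulated array. Cebpe passed the level on the non-stimulated array only, at 5.91, so its direction was set by the filter. The granule protein gene Epx read 5.25 on the stimulated and 4.73 on the non-stimulated array, both under background. Of the others under background, Prg2, Siglecf, Ccr3 and Ear6 differed by -0.43, -0.58, -0.07 and -0.21, and Il5ra by 0.0.

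The promoters of 5 members are shown first, because the members are targets of SREBP2 and LXR, which bind short elements near gene starts. Each is the 250 bases before an annotated start in RefSeq's table of GRCm38.p6, read 5′ to 3′ on the gene's own strand. Hmgcs1 lies on the plus strand at chr13:119690101-119690350, Lss on the plus strand at chr10:76531355-76531604 and Insig1 on the plus strand at chr5:28071162-28071411. Ebp lies on the minus strand at chrX:8193513-8193762 and Abca1 on the minus strand at chr4:53159896-53160145. Lss and Insig1 were picked after their values were seen, as members with a higher value on the stimulated array, and Ebp as an enzyme with a lower one. In the first 4, capitals mark the sterol element TCACNCCAC and the CCAAT box, which reads ATTGG on the opposite strand. In Abca1, capitals mark a pair of GGTNA elements with 5 bases between them, seen here as their reverse complement, which is the arrangement that LXR binds.
Hmgcs1: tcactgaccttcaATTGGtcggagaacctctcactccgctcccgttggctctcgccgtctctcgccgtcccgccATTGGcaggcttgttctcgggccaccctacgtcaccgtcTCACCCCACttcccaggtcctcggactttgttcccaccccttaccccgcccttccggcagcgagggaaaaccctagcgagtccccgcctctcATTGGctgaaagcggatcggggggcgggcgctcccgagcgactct
Lss: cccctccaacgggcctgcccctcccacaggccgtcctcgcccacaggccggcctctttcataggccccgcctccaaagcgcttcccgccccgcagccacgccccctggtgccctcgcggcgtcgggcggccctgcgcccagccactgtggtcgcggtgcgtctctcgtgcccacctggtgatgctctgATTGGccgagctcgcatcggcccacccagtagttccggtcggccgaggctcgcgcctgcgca
Insig1: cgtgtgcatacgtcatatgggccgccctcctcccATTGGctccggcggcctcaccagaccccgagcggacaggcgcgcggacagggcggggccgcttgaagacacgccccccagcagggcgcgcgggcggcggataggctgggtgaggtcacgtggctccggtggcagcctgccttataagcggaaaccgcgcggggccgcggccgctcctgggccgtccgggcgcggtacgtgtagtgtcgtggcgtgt
Ebp: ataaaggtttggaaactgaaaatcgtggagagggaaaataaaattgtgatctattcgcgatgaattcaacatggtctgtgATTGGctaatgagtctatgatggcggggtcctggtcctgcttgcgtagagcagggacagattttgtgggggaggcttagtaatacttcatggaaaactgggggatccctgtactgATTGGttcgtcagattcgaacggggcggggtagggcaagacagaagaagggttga
Abca1: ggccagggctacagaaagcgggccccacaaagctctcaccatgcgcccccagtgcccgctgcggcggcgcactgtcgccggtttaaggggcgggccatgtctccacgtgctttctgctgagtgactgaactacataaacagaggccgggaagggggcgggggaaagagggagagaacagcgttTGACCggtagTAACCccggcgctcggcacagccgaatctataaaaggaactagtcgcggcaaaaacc

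Of the 30 listed members, 25 had at least 1 window in that table, in 32 windows. The sterol element was found in the Hmgcs1 window alone among them, on the gene's own strand, from 137 to 129 bases before the start, and in 1.05% of all 32851 windows. The GGTNA pair was found in the Abca1 window alone, on the opposite strand, from 67 to 53 bases before the start, and in 0.621% of all windows. The CCAAT box, bound by the factor NF-Y, which acts beside SREBP2, was in 62.5% of the members' windows and in 33.8% of all windows. The GC box GGGCGG, bound by Sp1, was in 68.8% of the members' windows and in 32.7% of all. The E-box CACGTG, a site for several bHLH factors, was in 18.8% of the members' windows and in 6.02% of all. All motifs were searched on both strands, windows of 5 members are alternative starts of 1 gene each, and base composition was not matched. A match describes letters in the window and shows no binding. Only the letters given were searched, so a window without a match may still hold a variant of the motif.

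**Figure D1:**
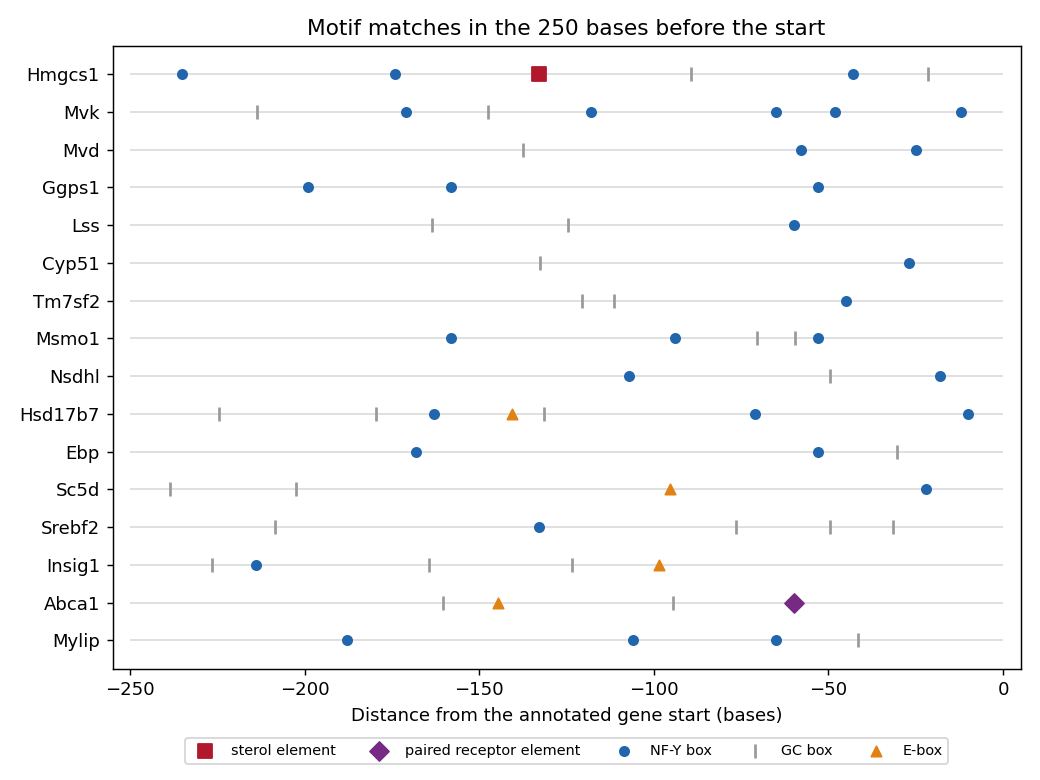
Motif matches (points and ticks at the middle of each match) in the 250 bases before the start of the 16 measured members with a single window, with distance from the annotated gene start in bases on the horizontal axis. The sterol element appears in Hmgcs1 alone and the paired receptor element (the GGTNA pair) in Abca1 alone, while NF-Y boxes (CCAAT) recur in 15 of the 16 rows.

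The synthesis enzymes were mostly higher in stimulated cells, each by a small amount. Of 17 measured enzymes 14 were higher and 3 lower, and their median difference was 0.11 (stimulated minus non-stimulated, log2), against 0.00 over all genes above background. In that whole set 50.2% of genes were higher and 48.2% lower. A difference of at least 1.1-fold, or 0.14 on the log2 scale, was reached upwards by 4 of the 17 enzymes and by 6 of all 26 members, which is 23.1% of the members against 17.7% of all genes. Downwards no member reached it, against 18.6% of all genes. In the brightest of 4 equal sets of genes by mean level, which holds 17 of the 26 members, that share was 8.33%. In the next set, which holds 8 members, it was 13.3%. No member reached 1.2-fold in either direction, which 6.11% of all genes did upwards and 6.91% downwards. These shares were 2.96% and 2.42% in the brightest set, and 4.18% and 3.07% in the next. Nearest to the 1.1-fold size were Fdps (0.15) and Sc5d (0.15) just inside, and Hsd17b7 (0.13), Mvd (0.13) and Abca1 (-0.14) just outside.

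**Figure D2:**
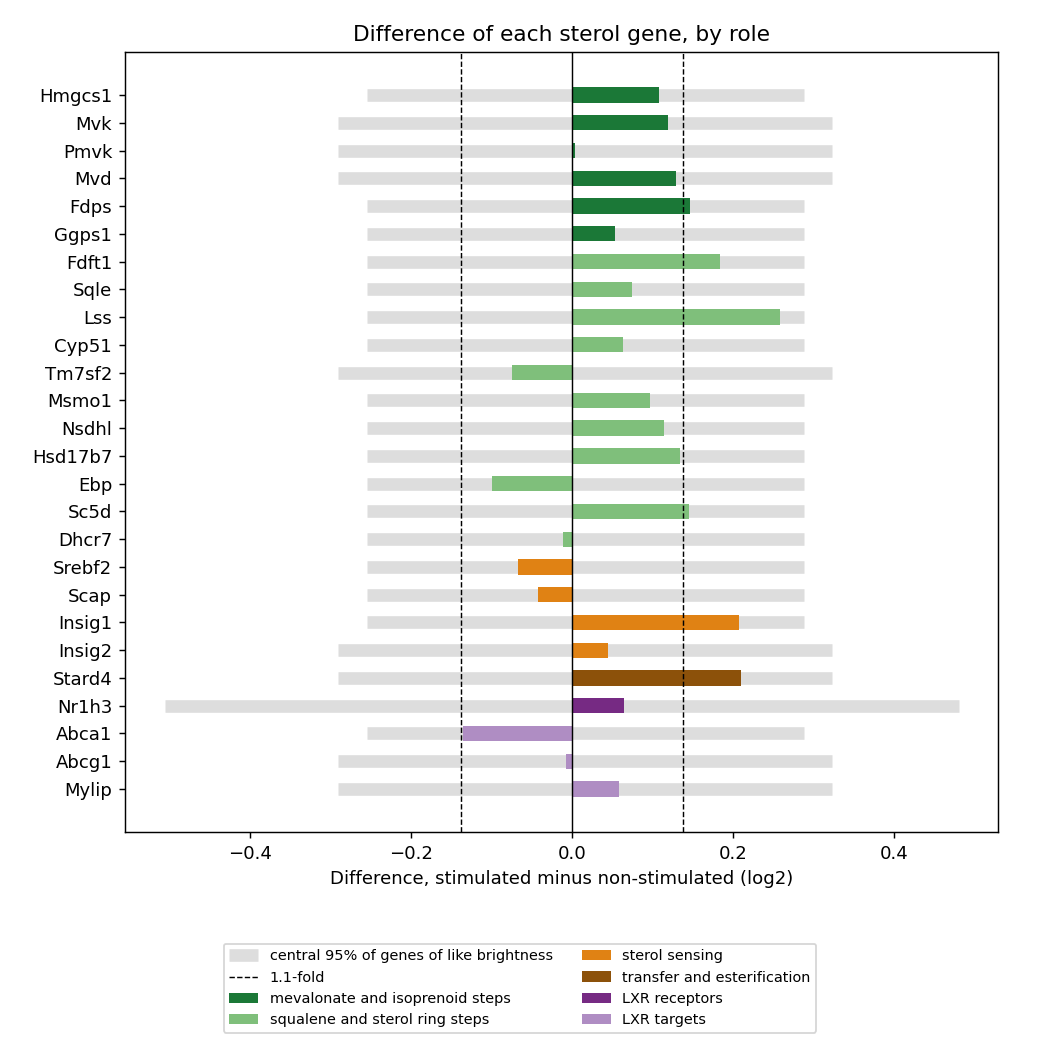
Difference between the arrays for each of the 26 measured members, as stimulated minus non-stimulated RMA values (log2, horizontal axis), coloured by role and set in the order of the pathway. Grey bars show the central 95% of the differences of genes in the same of 4 equal sets by brightness, dashed lines mark 1.1-fold, and every member lies inside its grey bar.

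In the mevalonate steps, all 6 measured enzymes were higher on the stimulated array. Hmgcs1, which makes HMG-CoA and whose promoter holds the sterol element printed above, read 10.96 on the stimulated and 10.85 on the non-stimulated array. Mvk, the mevalonate kinase, read 7.99 on the stimulated and 7.87 on the non-stimulated array, a difference of 0.12. Mvd, which decarboxylates the product to isopentenyl diphosphate, read 8.59 on the stimulated and 8.46 on the non-stimulated array. Pmvk, the kinase between these steps, was nearly level, at 8.11 on the stimulated and 8.10 on the non-stimulated array. Fdps, which builds farnesyl diphosphate, had the largest difference of the 6, at 10.38 on the stimulated and 10.23 on the non-stimulated array (1.11-fold). Ggps1, which diverts farnesyl diphosphate to geranylgeranyl groups for protein prenylation, read 8.90 on the stimulated and 8.85 on the non-stimulated array, so that its difference of 0.05 was the smallest after that of Pmvk.

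The steps that commit carbon to sterol held the largest difference of any member. Lss, the cyclase that folds epoxidised squalene into lanosterol, read 9.50 on the stimulated and 9.24 on the non-stimulated array, a difference of 0.26. A smaller difference than that of Lss was seen in 93.7% of genes above background and in 97.0% of those of like brightness. Fdft1, the squalene synthase that opens this stretch, read 10.77 on the stimulated and 10.58 on the non-stimulated array (1.14-fold). Sqle, the squalene epoxidase between them, differed less, at 9.75 on the stimulated and 9.68 on the non-stimulated array. In pathway order, Fdft1, Sqle and Lss thus differed by 0.18, 0.08 and 0.26.

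After lanosterol the enzymes went both ways. Cyp51, the lanosterol demethylase, read 9.80 on the stimulated and 9.74 on the non-stimulated array. The 3 enzymes that strip the remaining methyl groups from the ring were close to each other: the oxidase Msmo1 differed by 0.10, the decarboxylase Nsdhl by 0.11 and the reductase Hsd17b7 by 0.13. Msmo1 read 10.15 on the stimulated and 10.05 on the non-stimulated array, and Nsdhl 11.27 on the stimulated and 11.16 on the non-stimulated array. Hsd17b7 read 10.03 on the stimulated and 9.89 on the non-stimulated array. Sc5d, the desaturase that follows, read 10.96 on the stimulated and 10.82 on the non-stimulated array (1.11-fold). The 3 enzymes that were lower lie in this stretch too. Ebp, the sterol isomerase, read 9.01 on the stimulated and 9.11 on the non-stimulated array, and 14.9% of genes of like brightness had a lower difference. Tm7sf2, a sterol reductase, read 8.11 on the stimulated and 8.18 on the non-stimulated array. Dhcr7, the reductase that completes cholesterol on one of its routes, read 9.11 on the stimulated and 9.12 on the non-stimulated array. A CCAAT box lies in the windows of 15 of the 16 measured members with a single window, those of Ebp, Lss and Insig1 among them.

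**Figure D3:**
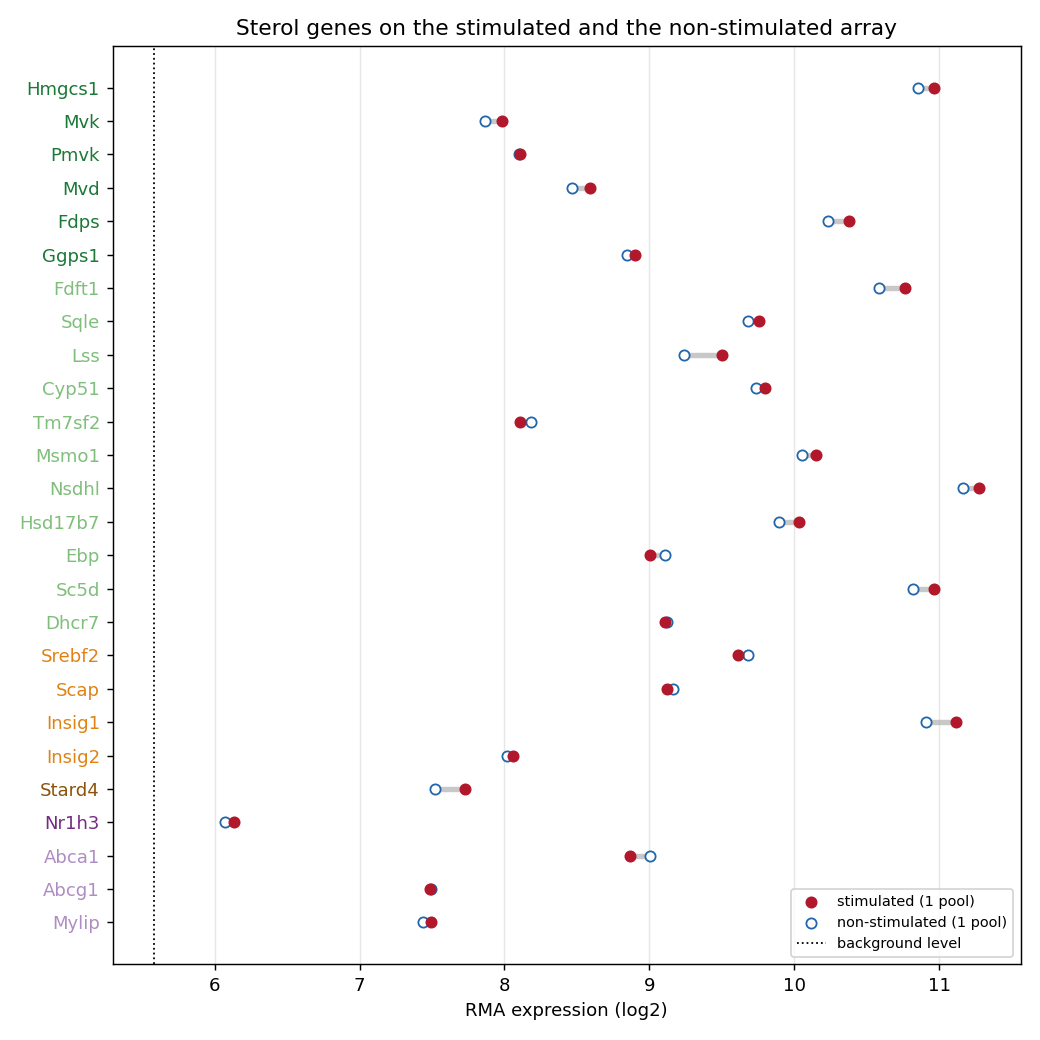
RMA expression (log2, horizontal axis) of each measured member on the stimulated array (filled points) and the non-stimulated array (open points), 1 pool each, with gene names coloured by role and the background level dotted. Lss shows the widest gap, at 9.50 on the stimulated and 9.24 on the non-stimulated array, and Nr1h3 lies closest to background, at 6.14 on the stimulated and 6.07 on the non-stimulated array.

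The sterol-sensing genes differed among themselves. Insig1, which holds SCAP in the endoplasmic reticulum and is itself a target of SREBP2, read 11.11 on the stimulated and 10.91 on the non-stimulated array (1.16-fold higher). Its paralog Insig2 read 8.06 on the stimulated and 8.02 on the non-stimulated array. Srebf2, which encodes SREBP2, was lower by a little, at 9.61 on the stimulated and 9.68 on the non-stimulated array. Scap read 9.12 on the stimulated and 9.16 on the non-stimulated array with its brighter probeset. A dimmer probeset of Scap, the only second probeset of any measured member, read 5.57 on the stimulated and 5.89 on the non-stimulated array, which is close to background. The difference of the escort and its factor therefore did not have the sign of most enzymes: 2 of the 4 sensing genes were higher and 2 lower, and their median was 0.00.

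Stard4, a soluble carrier that moves cholesterol between membranes and is a known SREBP2 target in mice, was among the members furthest up. It read 7.73 on the stimulated and 7.52 on the non-stimulated array (1.16-fold), and 90.8% of genes above background had a smaller difference. Insig1 stood next to it, with 90.6% of genes below. Lss, Stard4, Insig1 and Fdft1 were thus the 4 members with the largest differences, and they come from 3 roles: enzyme, sensor and carrier.

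The LXR side showed no shared direction. Nr1h3, which encodes LXR alpha, read 6.14 on the stimulated and 6.07 on the non-stimulated array. Abca1, the pump that loads cholesterol onto lipid-poor apolipoprotein and whose promoter holds the GGTNA pair printed above, read 8.87 on the stimulated and 9.00 on the non-stimulated array. Its difference of -0.14 was the lowest of the 26 members, and 8.5% of genes of like brightness lay below it. Abcg1, which exports cholesterol to mature lipoprotein particles, read 7.49 on the stimulated and 7.50 on the non-stimulated array. Mylip, a ubiquitin ligase that marks lipoprotein receptors for breakdown, read 7.50 on the stimulated and 7.44 on the non-stimulated array. Over the 4 measured LXR genes and targets, 2 were higher and 2 lower, the median was 0.03, and none reached 1.1-fold.

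The members were also set beside genes of like brightness. Of the 26 members, 17 fell in the brightest of 4 equal sets of genes by mean level and 8 in the next. In the brightest set 57.0% of all 3516 genes were higher on the stimulated array, against 70.6% of its 17 members, and 12.3% of the genes were higher by at least 1.1-fold, against 29.4% of the members (5 of 17). The median difference there was 0.10 for the members and 0.02 for all genes. In the next set 15.4% of genes were higher by that size, against 12.5% of its members (1 of 8, Stard4). The central 95% of differences ran from -0.25 to 0.29 in the brightest set, and all of its members lay inside.

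**Figure D4:**
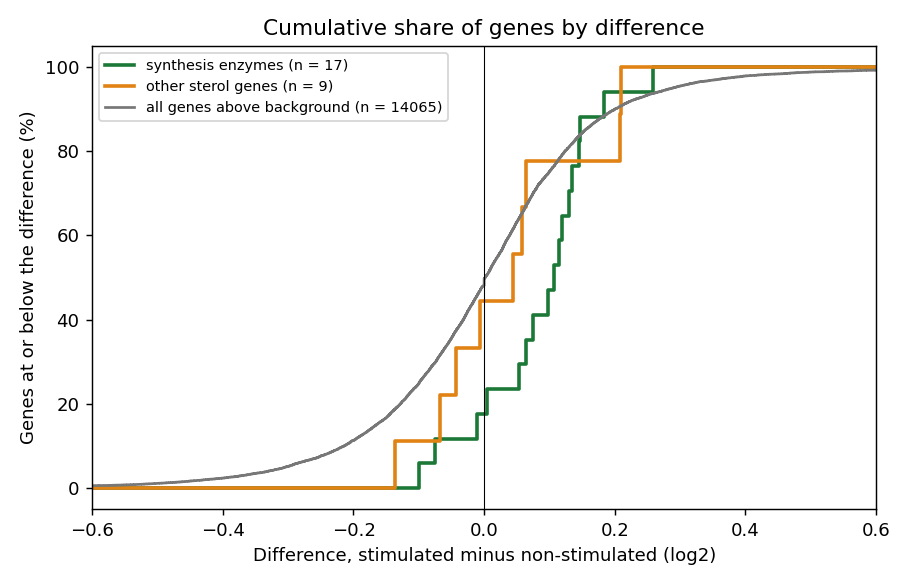
Cumulative share of genes (percent, vertical axis) at or below each difference (stimulated minus non-stimulated, log2, horizontal axis) for the 17 synthesis enzymes, the other 9 members and all 14065 genes above background. The curve of the enzymes lies to the right of that of all genes around its middle, with medians of 0.11 and 0.00, and stays within the outer range of that curve.

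Among other genes of sterol handling, 2 that make or clear oxysterols differed by more than any member. Ch25h adds a hydroxyl group to the side chain of cholesterol and is known as an interferon-inducible gene in macrophages. With the brighter of its 2 probesets it read 9.96 on the stimulated and 9.25 on the non-stimulated array, a log2 difference of 0.71. Cyp7b1, which clears side-chain oxysterols, read 6.90 on the stimulated and 6.06 on the non-stimulated array, a difference of 0.84. Of 7 genes of oxysterol metabolism above background, 4 were higher by at least 1.1-fold, 3 of them by 1.2-fold, and none was lower, with a median of 0.18. The rest were level or nearly so: Cyp46a1 and Cyp39a1 differed by 0.0 and Hsd3b7 by 0.01. Sult2b1 and Akr1d1, under background on both arrays, differed by -0.10 and -0.04. Over all genes above background, 17.7% were higher by 1.1-fold and 6.11% by 1.2-fold. The third by measured value was Cyp27a1, a mitochondrial sterol hydroxylase, chosen here for its value. It passed the background level with homogenate only, so its direction was set by the filter. By its bound it was at least 1.19-fold higher, short of the 1.2-fold at which it is counted. As folds, Ch25h was 1.63-fold and Cyp7b1 1.79-fold higher in stimulated cells.

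Genes of uptake and intracellular trafficking above background differed by less than 1.1-fold apart from a pair of genes. Olr1, a scavenger receptor for oxidised lipoprotein, read 7.35 on the stimulated and 6.60 on the non-stimulated array (0.75). Cav1, the coat protein of caveolae that binds cholesterol, read 8.98 on the stimulated and 9.65 on the non-stimulated array (-0.67). Of 19 such genes above background, 11 were higher and 8 lower, against 50.2% and 48.2% of all genes. By at least 1.1-fold 1 was higher and 1 lower, against 17.7% and 18.6% of all genes, and the median was 0.05. Beside Cav1, the contractile markers Acta2, Tagln and Des were lower too, by the differences given above, and their part in its value was not tested. The next in each direction were the lysosomal cholesterol exporter Npc1 at 0.14 and the oxysterol-binding carrier Osbp at -0.12.

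Macrophage markers stood as follows beside Ch25h and Olr1, which macrophages also express. Of 10 markers 4 were above background on the stimulated array and 3 on the non-stimulated array. All 4 were higher with homogenate (median difference 0.22), as were 50.2% of all genes above background. By at least 1.1-fold 3 were higher, Lyz2 among them by its measured value, against 17.7% of all genes. Cx3cr1 read 6.81 on the stimulated and 6.57 on the non-stimulated array, and Cd68 read 6.52 on the stimulated and 6.31 on the non-stimulated array. Lyz2, the macrophage lysozyme, read 5.66 on the stimulated array, and 5.15 on the non-stimulated array, which is under background. Its direction was thus set by the filter, and by its bound it was at least 1.06-fold higher. Fcgr1 differed by 0.06. The other 6 were under background on both arrays, among them the lineage markers Csf1r and Adgre1 and the pan-leukocyte gene Ptprc. They had no shared direction: Ptprc, Itgam and Mrc1 differed by -0.21, -0.14 and -0.35, and Csf1r, Adgre1 and Cd14 by 0.07, 0.06 and 0.12. The summed log2 level of the 10, which includes these values under background, was 54.05 on the stimulated and 53.48 on the non-stimulated array. In bulk RNA more cells of a type and more RNA per cell cannot be told apart, and the part of macrophages in these values was not tested.

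Of 11 partners of the sterol sensors above background, 4 were higher and 7 lower. By at least 1.1-fold 2 of the 11 were higher and 1 lower, against 17.7% and 18.6% of all genes. Erlin2, a scaffold of the endoplasmic reticulum, differed by 0.15 and Vcp, the ATPase that pulls proteins out of that membrane, by 0.14, while the ubiquitin ligase gene Rnf139 differed by -0.17 and the Vcp cofactor gene Ufd1 by -0.09. Of 11 other LXR partners and targets, 2 were higher and 3 lower by at least 1.1-fold, against the same 17.7% and 18.6% of all genes. The transporter genes Abca2 and Abcg4 differed by 0.26 and 0.18. Smpdl3a, a phosphodiesterase that is an LXR target in human macrophages, read 8.02 on the stimulated and 8.36 on the non-stimulated array (-0.34). Abcg5, a sterol transporter subunit counted here by its measured value, passed background in non-stimulated cells only, so its direction was set by the filter. By its bound it was at least 1.08-fold lower in stimulated cells, short of the 1.1-fold at which it is counted. As among the members, no shared direction was seen on the LXR side.

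Fatty acid synthesis genes, which the related factor SREBP1 drives, were mostly higher by small amounts. Of 15 above background, 12 were higher and 3 lower, 6 of them higher by at least 1.1-fold and none lower by that size. Scd1, Slc25a1 and Pnpla3, counted as higher, were nearly level (0.0078, 0.0037 and 0.0012). The median of the list was 0.04, against 0.02 for all genes of the brightest set. Of all genes 50.2% were higher at any size, and 57.0% in the brightest set, which holds most of this list. By 1.1-fold 17.7% of all genes were higher and 18.6% lower, and in the brightest set 12.3% and 8.33%. Acss2, which makes acetyl-CoA from acetate, read 7.29 on the stimulated and 6.98 on the non-stimulated array (1.24-fold). Thrsp, a regulator of lipid synthesis, passed background with homogenate only, so its direction was set by the filter. By its bound it was at least 1.22-fold higher there. Among the 3 lower genes, Gpam, an acyltransferase of glycerolipid synthesis, differed by -0.08 and the elongase gene Elovl5 by -0.05. Of 7 adipocyte markers 3 were above background on the stimulated array and 2 on the non-stimulated array, with summed log2 levels of 39.16 on the stimulated and 37.64 on the non-stimulated array. Fabp4, a fatty acid carrier, read 6.03 on the stimulated array and 4.74, under background, on the non-stimulated array. Its direction was thus set by the filter, and by its bound it was at least 1.36-fold higher. Its measured difference of 1.29 makes up most of the gap between the sums. They also include Adipoq, Cidec, Lep and Pparg, all under background on both arrays. Lpl (lipoprotein lipase) differed by -0.43 and Plin1 by 0.08, and Adipoq was under background on both arrays. Their part in these values was not tested.

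Of 14 genes above background that spend isoprenoids outside the sterol route, 7 were higher and 7 lower. By at least 1.1-fold 3 were higher and 2 lower, near the shares of all genes (17.7% and 18.6%), and the median was 0.02. Coq2, which attaches the isoprenoid tail of ubiquinone, read 7.29 on the stimulated and 6.91 on the non-stimulated array (1.30-fold higher), and the dolichol synthesis gene Dhdds differed by 0.18. Rce1, a protease that trims prenylated proteins, differed by -0.24 and the farnesyltransferase subunit gene Fntb by -0.15. Ggps1, the member that feeds this branch, lay between them at 0.05.

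**Figure D5:**
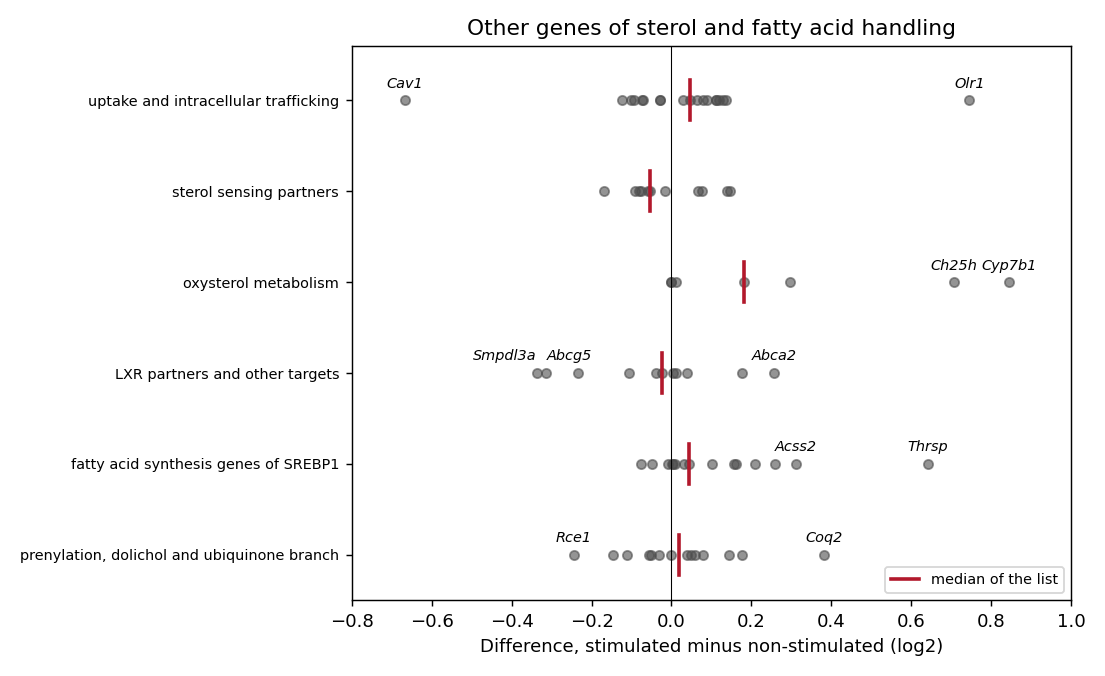
Difference of each gene above background in 6 further lists (stimulated minus non-stimulated, log2, horizontal axis), with 1 point per gene and a red bar at the list's median. Ch25h, Cyp7b1, Olr1 and Thrsp stand furthest to the right and Cav1 furthest to the left, while the medians lie between -0.05 and 0.18.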

How the data were processed

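RNA of 2 pools was read on 1 array each. The deposited unit is the log2 value of each probeset, which the authors made with RMA in Affymetrix Expression Console, per the submitters' processing notes. Neither versions nor a genome build were given in the sources used here. After sorting, the arrays were within 0.0757 of each other at every rank, as quantile normalization leaves them, which removes any shift common to all probesets. Of 41345 probesets, 23521 were paired with 1 gene by the platform annotation, and gene identifiers of 23328 matched RefSeq's gene table (GRCm38.p6), which gave current symbols. The probeset with the highest mean stood for a gene. Dimmer probesets of Ch25h, Npc1, Vcp, Smpdl3a, Vim and Lpl are not reported here. Near-identical genes may share probes. The background filter asked for a value over the level on either array. Where only 1 array passed, the fold was computed against the level of the other and is a bound.

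With 1 array per condition there is no test and no p-value. All 26 measured members are named, and of each further list the 2 genes with the largest difference in each direction. The members, lists and the 1.1-fold size were chosen with earlier results of these data known, and a tendency of these enzymes towards higher values was among them. Some list members are not analysed here, and protein sequences were not used. Counts and motif searches were checked on simulated data. Python 3.11.15, pandas 2.3.3 and statsmodels 0.14.6 were used. Alternatives were other background filters, the mean of a gene's probesets, centring on the median or a lowess trend (fraction 0.3), and other fold sizes.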

Additional observations from a re-analysis of the deposited data

How the results depend on the processing

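The median of the synthesis enzymes ranged from 0.10 to 0.11 over 6 other settings of filter, probeset and centring. That of the LXR genes and targets ranged from -0.01 to 0.03, and its sign turned with a background at the 99th percentile, where Nr1h3 dropped out. The 6 members higher by at least 1.1-fold became 4 after subtraction of a lowess trend over expression, 19 counting any difference and 0 at 1.2-fold. Of members lower by 1.1-fold there were 0 as reported, 1 with the mean of a gene's probesets (Scap), 1 after the lowess trend (Abca1) and 7 counting any difference. Of 155 single values under these settings, 154 moved by less than 0.05 (log2), a tolerance set here since there are no replicates. The exception was Scap, and Pmvk changed sign under the lowess trend, at -0.0019. No paired analysis was possible because each condition is 1 array of pooled cultures. Replicate error is unknown, so differences as small as those of these members cannot be told from variation between pools.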
